A study of Drosophila melanogaster with 12 samples.

Results

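The 7 tubulin genes described here were the rows of the expression table named alphaTub84B, alphaTub84D, alphaTub85E, betaTub56D, betaTub60D, betaTub85D and betaTub97EF, out of 15104 genes. The rule took them by name, and all 7 reached 1 FPKM in at least 1 group, as did 11181 genes in all. RNA came from heads of adult flies of the background 2202U, in which a Gal4 driver expressed the ribosomal protein L10A fused to GFP. The genotypes were Elav-Gal4/+;UAS-GFP-L10A/+ for neurons, repo-Gal4/+;UAS-GFP-L10A/+ for glia and UAS-GFP-L10A/+;takeout-Gal4/+ for the fat body, so every group carried the tag and no group was without a driver. PolyA RNA was sequenced from the cleared lysate of 1000 heads (Input) and from the ribosomes that a GFP antibody pulled from it (IP), with 12 samples in 6 groups of 2 biological replicates. The authors gave 1 FPKM per gene and group, a level per transcript length and library size, into which both replicates had been combined. No value below therefore has a standard deviation, the depth is unknown, and only the comparisons between IPs carry a test, the authors' own q-value. Where 3 values follow each other without labels, their order is neurons, glia, fat body.

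Microtubules are hollow polymers of dimers, each made of an alpha- and a beta-tubulin. They carry transport along axons, build the spindle of dividing cells and form the axoneme of cilia and sperm tails. In the fly, alphaTub84B and the nearly identical alphaTub84D encode the general alpha-tubulins and betaTub56D the general beta-tubulin, while the others are used in fewer tissues. betaTub85D is the beta-tubulin of male germ cells after mitosis and of the sperm axoneme. betaTub60D is found in developing muscle and other mesoderm and in support cells of chordotonal stretch receptors, and alphaTub85E likewise in a limited set of muscle, support and testis cells. betaTub97EF encodes a further, less studied beta-tubulin.

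The marker genes of the labelled cell types were not equally clear in the 3 IPs. Summed FPKM of 7 glia markers was 1047, 3175 and 1494 in the IPs, and that of 7 fat body markers was 4447, 4757 and 40915. The 7 neuron markers summed to 362, 51.6 and 91.1 in the IPs, but to 589.7 in the neuron Input. Most of that was n-syb, and without it the other 6 summed to 29.2, 7.84 and 14.7 across IPs and 194 in the neuron Input. In a later annotation the longest transcripts of these 6 genes run from 5872 bases (Syt1) to 12181 (Sh), against 3570 for n-syb. The part of length in these sums was not tested. elav itself, the gene of the neuron driver, had 3.48 FPKM in the neuron IP and 15.0 in its Input. None of these markers was at 0. repo reached 141 FPKM with the glia driver and 11.2 with the neuron driver (IP values), and takeout (to) reached 55.8 with the glia driver beside 44.4 with its own. RpL10Ab, which encodes the protein that was tagged, stood at 7705, 21969 and 44378 FPKM across the IPs, against 2083 to 2353 in Input.

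In a later annotation of the genome (BDGP6, not the BDGP5 build to which the reads were aligned) the 3 alpha-tubulin genes, betaTub85D and betaTub97EF lie on chromosome arm 3R, and betaTub56D and betaTub60D on 2R. Their longest transcripts run from 1560 bases (alphaTub85E) to 2518 (betaTub60D), around the median of 1808 bases over the 10574 genes with a length. No other annotated gene overlaps any of the 7. The coding sequences of these genes are alike enough that reads could be shared between members, most of all between alphaTub84B and alphaTub84D. How such reads were assigned is not given in the sources used here, and the split of FPKM between close members is uncertain for that reason.

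alphaTub84B (FBgn0003884), the main alpha-tubulin gene, was the highest member in every group. Its Inputs were at 919.8, 874 and 778 FPKM, its IPs at 2271, 1508 and 1503. All IPs lay above all Inputs, and the neuron IP stood apart from the other two. By FPKM it ranked 51, 116 and 210 of 15104 genes across IPs, against 133 to 151 across Inputs.

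alphaTub84D (FBgn0003885) had about an order of magnitude less RNA and again its highest level in the neuron IP. Its Inputs were at 75.5, 64.8 and 62.5 FPKM, its IPs at 238, 96.4 and 108. The Inputs were close together, and the neuron IP was more than double the other IPs.

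betaTub56D (FBgn0003887) was the highest beta-tubulin gene in every group. Its Inputs were at 368, 288 and 296 FPKM, its IPs at 1320.4, 564 and 732. Here too the neuron IP was highest and the Inputs lowest.

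betaTub97EF (FBgn0003890) had a different order, with the fat body IP on top. Input FPKM was 66.5, 50.9 and 53.9, while IP FPKM was 97.5, 99.5 and 265. The first pair of IPs lay close together, and all IPs lay above all Inputs.

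The remaining 3 members were low. betaTub60D (FBgn0003888) stood at 5.06, 7.26 and 5.34 FPKM before the pull-down and at 1.38, 6.28 and 2.92 after it, so that the neuron IP was lowest and only the glia IP reached the level of the Inputs. betaTub85D (FBgn0003889) stood at 5.27, 23.3 and 6.84 before and 1.89, 7.53 and 4.05 after, with the glia Input far above the other groups. alphaTub85E (FBgn0003886) was lowest of all, with 1.698, 1.81 and 2.71 FPKM before and 1.24, 0.741 and 2.11 after. For alphaTub85E the fat body groups were the highest Input and the highest IP.

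**Figure D1:**
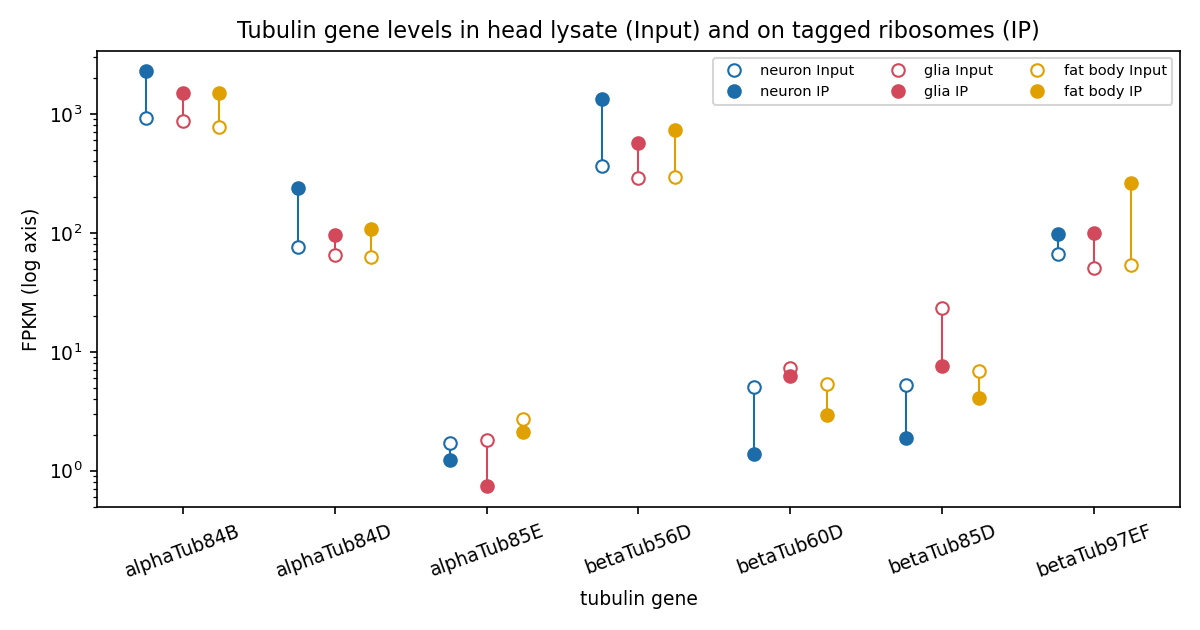
FPKM of each tubulin gene on a log axis, with open circles for Input and filled circles for IP, joined by a line for each cell type; each circle is the authors' 1 combined value per group. alphaTub84B, alphaTub84D and betaTub56D are highest in the neuron IP (2271, 238 and 1320.4), betaTub97EF in the fat body IP (265), and betaTub60D, betaTub85D and alphaTub85E lie below their Inputs in all IPs.

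Shares within a group are the same whatever scale a column was given. alphaTub84B made up 92.3% of the summed FPKM of the 3 alpha-tubulin genes in the neuron Input, 92.9% in the glia Input and 92.3% in the third. Its IP shares were 90.5%, 94.0% and 93.1%. alphaTub84D supplied most of the rest, at 6.89% to 7.57% in Input and 9.48%, 6.002% and 6.72% in IP. The alpha composition thus stayed within a few percentage points across groups, with the neuron IP at the alphaTub84D end. alphaTub85E took 0.170% to 0.321% in the Inputs and 0.0461% to 0.131% in the IPs.

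The beta composition varied more. betaTub56D made up 82.7%, 78.0% and 81.7% of the summed beta-tubulin FPKM before the pull-down, and 92.9%, 83.3% and 72.9% after it. betaTub97EF was its main counterpart, at 15.0%, 13.8% and 14.9% before and 6.86%, 14.7% and 26.4% after. The ratio of betaTub56D to betaTub97EF was 5.49 to 5.65 across Inputs and 13.5, 5.67 and 2.77 across IPs. The glia IP therefore matched the lysate in this ratio, and the neuron and fat body IPs lay on opposite sides of it. betaTub60D took 1.14% to 1.96% of beta-tubulin FPKM across Inputs and 0.0973%, 0.927% and 0.291% across IPs. betaTub85D took 1.19%, 6.30% and 1.89% across Inputs and 0.133%, 1.11% and 0.403% across IPs.

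Summed alpha-tubulin FPKM exceeded summed beta-tubulin FPKM in each group. The ratio was 2.24, 2.55 and 2.33 across Inputs and 1.77, 2.37 and 1.61 across IPs. In the neuron IP this went with betaTub56D, and in the fat body IP with both betaTub56D and betaTub97EF, having larger IP/Input ratios than alphaTub84B. Together the 7 members summed to 1441, 1310 and 1205 FPKM across Inputs and to 3931, 2283 and 2617 across IPs. That was 0.208% to 0.229% of the FPKM sum of an Input, and 0.468%, 0.272% and 0.154% of the IPs. The FPKM sum over all genes was 636575, 570917 and 578807 in the Inputs and 839267, 839886 and 1.70e+06 in the IPs. The low share in the fat body IP thus went with a larger sum over all genes.

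**Figure D2:**
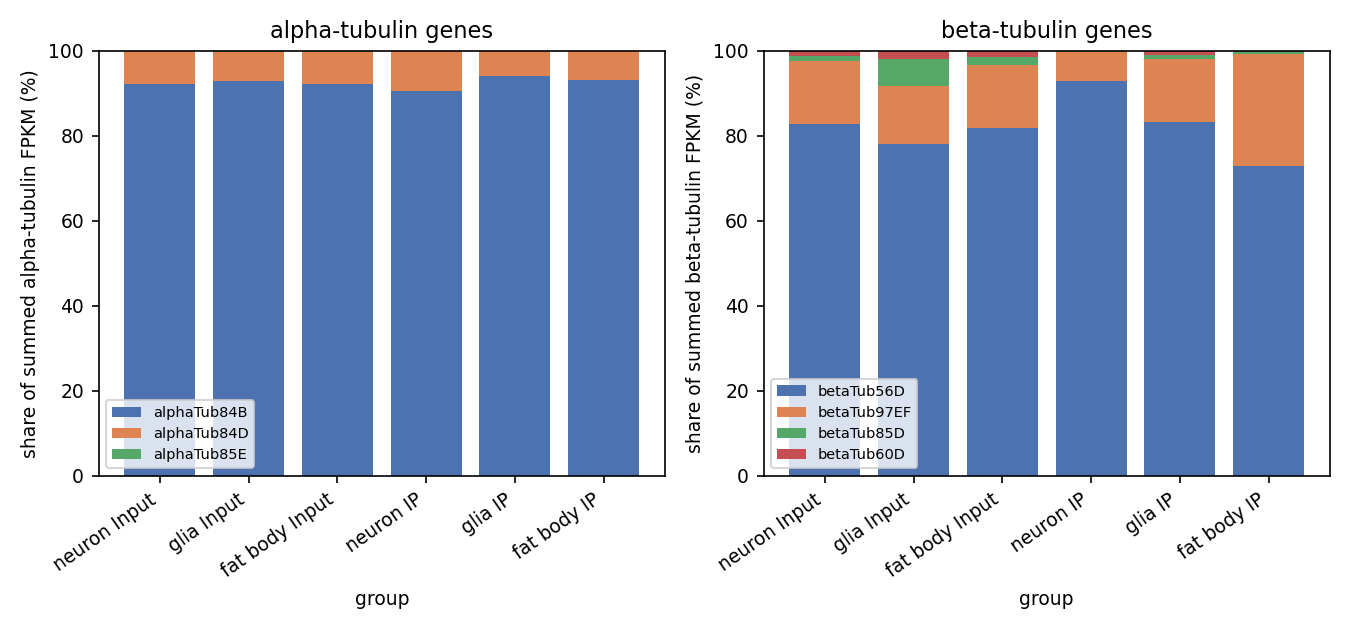
Stacked bars of each gene's share (%) of the summed FPKM of the 3 alpha-tubulin genes (left) and the 4 beta-tubulin genes (right) in the 6 groups. The alpha bars are nearly alike, while the betaTub97EF share runs from 6.86% in the neuron IP to 26.4% in the fat body IP, and betaTub85D shows in the glia Input (6.30%).

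Setting an IP against the Input of the same lysate asks which tubulin transcripts were on tagged ribosomes of a cell type more or less than in the head as a whole. In bulk samples, fewer cells of a type and less RNA per cell cannot be told apart. These comparisons have no test, log2 ratios are of FPKM plus 1, and the counts below take genes that differ by 2-fold or more. IP columns also ran higher than Input columns in general. The 5599 genes that never dropped below 5 FPKM had a median log2 IP/Input of 0.40, 0.49 and 0.82. Setting the columns to a common median (median scaling) lowered the log2 values by 0.52, 0.47 and 0.80, and giving all columns 1 total, ribosomal protein genes left aside (total scaling), lowered them by 0.58, 0.75 and 1.49.

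In the neuron IP 3 of 7 members were at least 2-fold higher than in the Input, against 19% of all genes, and 2 were at least 2-fold lower, against 13.1% (32.1% of all genes in either direction). The members' median log2 was 0.54 and that of all 11119 genes compared was -0.0021. betaTub56D had a log2 of 1.84 (3.58-fold), with 2.83% of genes above it, alphaTub84D 1.64 with 5.33% above, and alphaTub84B 1.30 with 11.5% above. Under median and total scaling betaTub56D stood at 1.32 and 1.27, alphaTub84D at 1.13 and 1.07, and alphaTub84B at 0.78 and 0.73. betaTub60D was lower by 2.54-fold (log2 -1.35) and betaTub85D by 2.17-fold (-1.12). betaTub97EF had 0.54, which was -0.03 under total scaling, and alphaTub85E had -0.27.

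In the glia IP 0 of 7 members were at least 2-fold higher, against 18.7% of all genes, and 1 was lower, against 19.7% (38.4% in either direction). The median log2 was 0.56 for the members and 0.05 for all genes. betaTub56D stood at 0.97, betaTub97EF at 0.95, alphaTub84B at 0.79 and alphaTub84D at 0.56, the last turning to -0.18 under total scaling. betaTub60D, at -0.18, was nearer to its Input here than in the other IPs, and alphaTub85E had -0.69. The member that counted as lower was betaTub85D at -1.51. betaTub85D was highest in the glia Input (23.3 FPKM) and, among the IPs, in the glia IP (7.53). Against the mean of the neuron and fat body Inputs, a comparison added after the data had been seen, its log2 was 0.27. That base comes from other driver lines, so this value cannot separate pull-down from line. Against their own Inputs the neuron and fat body IPs had log2 values of -1.12 and -0.64.

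In the fat body IP 2 of 7 members were at least 2-fold higher, against 27.5% of all genes, and 0 were lower, against 10.2% (37.7% in either direction). The median was 0.79 for the members and 0.10 for all genes. betaTub97EF was 4.84-fold higher (log2 2.27, with 5.10% of genes above it, and 1.48 and 0.80 under median and total scaling). betaTub56D had 1.30, with 20.02% of genes above it, and was -0.18 under total scaling. alphaTub84B and alphaTub84D, at 0.95 and 0.79, also turned negative under total scaling (-0.54 and -0.68), and alphaTub84D was at -0.0070 under median scaling. betaTub60D, betaTub85D and alphaTub85E had -0.69, -0.64 and -0.25.

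**Figure D3:**
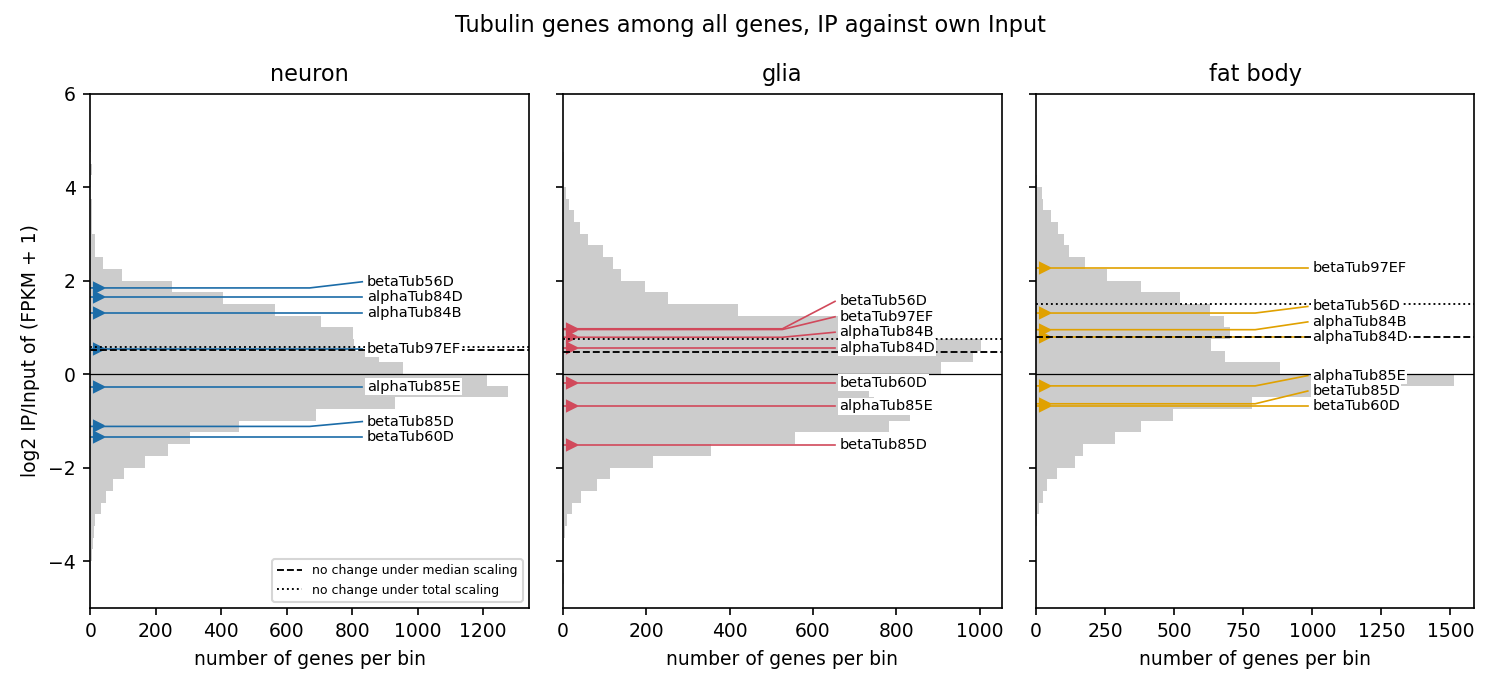
Grey histograms of log2 IP/Input of (FPKM + 1) over all genes compared in each cell type, with the 7 tubulin genes marked by arrowheads; the dashed and dotted lines are where a gene would stand at no change under median and total scaling. betaTub56D, alphaTub84D and alphaTub84B lie above both lines in neurons (1.84, 1.64 and 1.30), and betaTub97EF lies above both in the fat body (2.27).

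For betaTub97EF the log2 IP/Input of neurons lay 1.73 and that of glia 1.32 below the fat body, with medians over all genes of -0.15 and -0.32. Under total scaling these differences were -0.82 and -0.59, and alphaTub84D and betaTub56D then had 1.76 and 1.45 more in neurons than in the fat body, against 0.86 and 0.54 on the deposited scale. alphaTub84D had 1.08 more in neurons than in glia, with 12.0% of genes above it, and betaTub60D had 1.17 less, with 14.0% of genes at or below it. betaTub85D had 0.39 more in neurons than in glia, so that its excess in the glia IP over the neuron IP was not seen once each IP was set against its own Input. None of these differences could be tested.

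The 3 IPs were compared with one another using the q-values that the authors gave. Between the neuron and glia IPs 4 of 7 members passed q under 0.05, 2 of them higher in neurons, against 15.5% of all genes, and 2 higher in glia, against 15.3% (30.8% in either direction). alphaTub84D was 2.45-fold higher in the neuron IP (log2 1.30, q = 0.00211 in the authors' deposited table). betaTub56D was 2.34-fold higher there (log2 1.22, q = 0.00395 in the authors' deposited table). betaTub60D was 3.06-fold higher in the glia IP (log2 of neuron over glia -1.61, q = 0.00104 in the authors' deposited table). betaTub85D was 2.95-fold higher in the glia IP (-1.56, q = 0.00645 in the authors' deposited table), as it was in the glia Input. alphaTub84B did not pass, with a log2 of 0.59 in the same direction as alphaTub84D (q = 0.193 in the authors' deposited table). betaTub97EF had -0.03 and alphaTub85E 0.36, with q of 0.990 and 0.512 in the authors' deposited table.

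Between the neuron and fat body IPs 1 member was higher in neurons, against 9.32% of all genes, and 1 was higher in the fat body, against 11.9% (21.3% in either direction). alphaTub84D was 2.18-fold higher in neurons (log2 1.13, q = 0.00674 in the authors' deposited table) and betaTub97EF 2.70-fold higher in the fat body (-1.43, q = 0.00401 in the authors' deposited table). betaTub56D had 0.85 towards neurons and missed the threshold, with q = 0.0658 in the authors' deposited table. The sizes depended on the scale of the columns. Under median and total scaling betaTub97EF stood at -1.30 and -0.70, alphaTub84D at 1.26 and 1.85, and betaTub56D at 0.98 and 1.58. The other 4 had q from 0.184 (betaTub60D) to 0.521 (alphaTub85E) in the authors' deposited table. Both of these comparisons use the same neuron IP.

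Between the glia and fat body IPs 2 members were higher in glia, against 12.9% of all genes, and 2 in the fat body, against 31.6% (44.5% in either direction). betaTub60D was 1.86-fold higher in glia (log2 0.89, q = 0.00136 in the authors' deposited table) and betaTub85D 1.69-fold (0.76, q = 0.0142 in the authors' deposited table). betaTub85D was also 3.09-fold higher in the glia than in the fat body Input. Its difference of log2 IP/Input, glia minus fat body, was -0.87, with a median over all genes of -0.32. betaTub97EF was 2.64-fold higher in the fat body, with a log2 of -1.40 and a q listed as 0 in the authors' deposited table. alphaTub85E was 1.79-fold higher in the fat body at FPKM of 0.741 and 2.11 (-0.84, q = 0.0386 in the authors' deposited table). alphaTub84B was level between these IPs, with a log2 of 0.0052 (q = 0.998 in the authors' deposited table), while alphaTub84D had -0.17 and betaTub56D -0.37. All 3 of these were positive under both scalings. Under median and total scaling betaTub97EF stood at -0.98 and -0.61, and alphaTub85E at -0.56 and -0.34. betaTub60D then stood at 1.20 and 1.42, and betaTub85D at 1.09 and 1.34.

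Each of 6 of the 7 members differed by less than 2-fold between the 3 Inputs. betaTub85D was the exception, 3.87-fold lower in the neuron than in the glia Input (log2 -1.95) and 3.09-fold higher in the glia than in the fat body Input (1.63). It was the only member called lower in the neuron Input than in the glia Input, where 10.2% of all genes were, and 0 members were called higher, against 0.988% (11.2% in either direction). In glia against fat body Input 1 member was higher, against 8% of all genes, and 0 were lower, against 0.332% (8.33% in either direction). In neuron against fat body Input 0 were higher, against 0.521%, and 0 lower, against 0.422% (0.942% in either direction).

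Genes of the testis were high in the same groups as betaTub85D. The 13 testis markers, among them the protamine-like and sperm tail genes of the Mst family and dj (don juan), summed to 119, 626 and 158 FPKM across Inputs and to 31.3, 169 and 88.4 across IPs. Of the 11 markers that reached 1 FPKM all 11 were at least 2-fold higher in the glia Input than in both others, against 7.81% of all genes, and the other two (can and aly) were under 1 FPKM in all groups. None of the 13 was at 0. Relative to the neuron Input, betaTub85D stood at 4.41 in the glia Input and 1.30 in the fat body Input, beside 5.26 and 1.33 for the summed markers. IP divided by Input gave 0.358, 0.324 and 0.591 for betaTub85D, beside 0.263, 0.269 and 0.560 for the markers. Their part in the betaTub85D values was not tested.

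**Figure D4:**
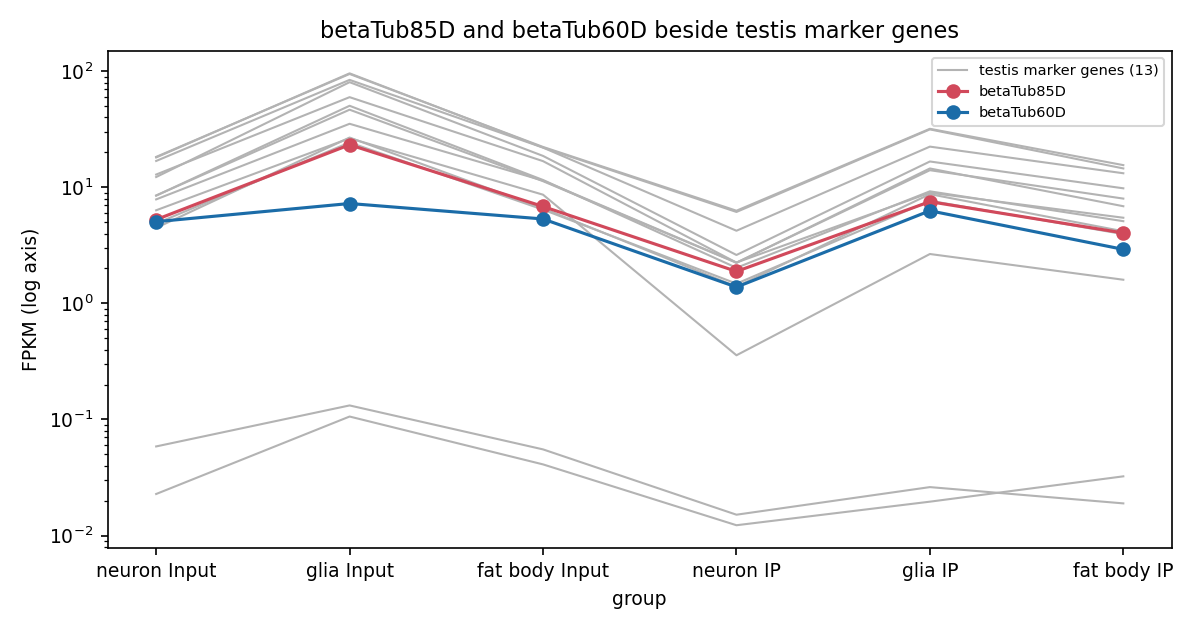
FPKM on a log axis across the 6 groups for betaTub85D (red), betaTub60D (blue) and the 13 testis marker genes (grey); the lines only join the values of 1 gene. betaTub85D peaks in the glia Input (23.3) and runs alongside the markers, while betaTub60D stays between 5.06 and 7.26 in the Inputs.

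The genes whose pattern over the 6 groups was most like each member's were found by the Euclidean distance between log2(FPKM + 1) profiles, each centred on its own mean. For betaTub85D they were Mst35Ba (distance 0.099), Mst35Bb (0.18), tomboy20, sinah and ssp5, the first pair encoding protamines of sperm chromatin. For betaTub60D they were CLIP-190, which encodes a microtubule plus-end linker protein (0.50), Mmp1, Dscam, zormin and fog. The nearest genes to alphaTub84D were l(3)neo43 (0.082), Neos, Sry-beta, Xpac and Spt3, and those to betaTub56D were trsn (0.21), ave, Trs23, Taf10b and HP1c. alphaTub84B was closest to l(2)35Cc (0.20), viaf, E2f2, Orc4 and ns4, and betaTub97EF to Nlp (0.22), SmD1, Nmd3, Mfe2 and RpLP0-like. alphaTub85E had as nearest genes PNUTS (0.38), Pcf11, tim, Hsc70-1 and poe. Among the members themselves alphaTub84D and betaTub56D lay closest together (0.51), then alphaTub84B and alphaTub84D (0.53).

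Other genes that make, fold, move along or modify microtubules were taken from 9 lists with 78 genes in the table, 67 of them at 1 FPKM or more in at least 1 group. Their median log2 IP/Input was 0.45, -0.16 and -0.15, and the first of these turned to -0.02 under median and -0.07 under total scaling. In neurons 14 were at least 2-fold higher in IP than Input and 8 lower, in glia 3 and 16, and in the fat body 9 and 11. As shares these were 20.9% higher and 11.9% lower in neurons, near the 19% and 13.1% of all genes. In glia they were 4.48% and 23.9%, against 18.7% and 19.7%, and in the fat body 13.4% and 16.4%, against 27.5% and 10.2%. By q in the authors' deposited table, there were 17 higher in the neuron than in the glia IP and 7 lower, 19 were higher in the neuron than in the fat body IP and 1 lower, and 5 were higher in the glia than in the fat body IP and 14 lower. Those shares were 25.4% and 10.4% (all genes 15.5% and 15.3%), 28.4% and 1.49% (9.32% and 11.9%), and 7.46% and 20.9% (12.9% and 31.6%).

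Of the other tubulin genes, gammaTub23C, whose product nucleates microtubules, stood at 13.8, 10.9 and 11.3 FPKM before the pull-down and 38.7, 9.99 and 11.0 after it. Like alphaTub84D it was highest in the neuron IP, with log2 values of 1.85 over glia and 1.73 over the fat body (q = 0.00376 and 0.00498 in the authors' deposited table). alphaTub67C, the maternal alpha-tubulin gene, was below 1 FPKM in all groups, as was gammaTub37C. CG7794 and CG32396, annotated as tubulin-like, were highest in the glia Input, at 5.64 and 2.90 FPKM. Among subunits of the gamma-tubulin ring, Grip163 alone passed between neuron and glia IP (log2 1.64, q = 0.000119 in the authors' deposited table), 1 of 6, where 15.5% of all genes were higher in neurons.

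The chaperonin and its cofactors fold tubulin. Of 12 genes 8 were at least 2-fold higher in the fat body IP than in the Input, 3 in neurons and 1 in glia, with none lower, against 27.5%, 19% and 18.7% of all genes higher. The list medians were 0.63, 0.58 and 1.06 on the deposited scale. They were 0.13, 0.15 and 0.28 under median scaling, with 1 gene still higher in the fat body, and 0.08, -0.12 and -0.38 under total scaling, with 0 higher and 1 lower there. By the q-values of the authors' deposited table, 8 of 12 were higher in the fat body than in the glia IP, against 31.6% of all genes. The median log2 of glia over fat body IP was -0.60, and 0.16 under total scaling. Cct5, a chaperonin subunit, reached 61.5, 55.9 and 118 FPKM across IPs from Inputs of 30.1 to 39.8, and CG7033, another subunit, 70.7, 57.5 and 107 across IPs. CG1890, a tubulin-binding cofactor gene, was high in all IPs (90.1, 91.6 and 111 FPKM against 33.2 to 37.7), and tbce, a folding cofactor gene, stood at 36.5, 17.6 and 13.6 FPKM across IPs.

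Microtubule-associated protein genes were more often lower than higher in IP against Input. In neurons 4 of 12 were at least 2-fold lower and 1 higher, in glia 5 were lower and in the fat body 7, against 13.1%, 19.7% and 10.2% of all genes lower, with list medians of -0.64, -0.97 and -1.10. Between IPs 4 of 12 were higher in neurons than in glia and 0 lower by q in the authors' deposited table, against 15.5% and 15.3% of all genes. futsch, the neuronal relative of vertebrate MAP1B, went from 34.4 FPKM before the neuron pull-down to 5.95 after it (log2 -2.35). Jupiter had 163 and 169 FPKM in the neuron Input and IP, while its glia and fat body IPs were at 39.2 and 46.6. Eb1, the plus-end binding protein gene, was near its Input in all cell types (-0.0060, -0.16 and -0.36), and Map60 was higher in the neuron IP by 1.37. Long transcripts were lower in the IPs in general: Spearman's rho between longest transcript and log2 IP/Input was -0.30, -0.27 and -0.38, across 10515, 10512 and 10514 genes, which are not independent replicates. The longest futsch transcript has 22255 bases, and the part of length in these values was not tested.

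Motor genes were more often higher than lower in the neuron IP against the other IPs. In the neuron IP 3 of 9 kinesin genes were at least 2-fold higher than in the Input and 1 lower, against 19% and 13.1% of all genes. Under median and total scaling 1 was higher and 1 lower, and no share over all genes was computed there. The list median of 0.78 became 0.27 and 0.21 under these scalings. By q in the authors' deposited table, 4 of 9 were higher in the neuron than in the glia IP and 0 lower, against 15.5% and 15.3% of all genes. Klp64D, a kinesin-II motor, stood at 65.3, 12.4 and 15.6 FPKM across IPs and 21.2 in the neuron Input. unc-104, the kinesin of synaptic vesicle precursors, had 147 FPKM in the neuron IP, near its Input of 139.9, against 14.6 and 21.7 in the other IPs. Klc, the kinesin light chain gene, stood at 68.6, 33.5 and 30.2 FPKM across IPs. Of 10 dynein and dynactin genes 3 were higher and 1 lower in the neuron than in the glia IP by the same q-values, against the same shares of all genes. robl, a dynein light chain gene, had 370.4, 226 and 163 FPKM in the 3 IPs, and ctp, another light chain gene, was lower in the neuron IP (48.7 FPKM) than in its Input (206).

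Enzymes that sever or modify tubulin were mixed. kat-60L1, a katanin-like severing gene, stood at 69.3, 7.12 and 10.8 FPKM across IPs, with Inputs at 17.9 to 19.5, and katanin-60 had 11.6 to 15.0 in every group. kat-60L1 was the only one of 7 severing and depolymerising genes that was higher in the neuron than in the glia IP by the q-values of the authors' deposited table, with Klp59C and Klp59D lower, where 15.5% of all genes were higher and 15.3% lower. HDAC6, which removes acetyl groups from tubulin, was ordered over the IPs like betaTub97EF, at 60.4, 133 and 304 FPKM. CG3967, an acetyltransferase-like gene, stood at 102, 19.1 and 32.6 FPKM across IPs (q = 0.0584 for neuron against glia in the authors' deposited table). Of the 6 tubulin-modifying genes 2 were higher in the neuron than in the glia IP and 3 lower by those q-values, against the same shares. Axonemal genes were low, 2 of 9 reaching 1 FPKM. nompB, an intraflagellar transport gene, had 1.09 FPKM in the neuron IP and 0.164 to 0.394 elsewhere, and CG9313, a dynein chain gene, had 3.54 in the glia Input and 0.603 to 1.16 elsewhere.

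In the glia Input 7 of the 67 genes were at least 2-fold higher than in both other Inputs (10.4%, against 7.81% of all genes) and 0 were lower. They were the tubulin-like CG7794 and CG32396, the kinesins Klp59C and Klp59D, the dynein light chain gene Cdlc2, TTLL3B, a gene of the tubulin tyrosine ligase-like family, and CG9313, named here because the count was small. TTLL3B had 5.74 FPKM there against 1.07 and 1.56 in the neuron and fat body Inputs. The summed testis markers given above were likewise highest in that Input, and their part in these values was not tested.

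**Figure D5:**
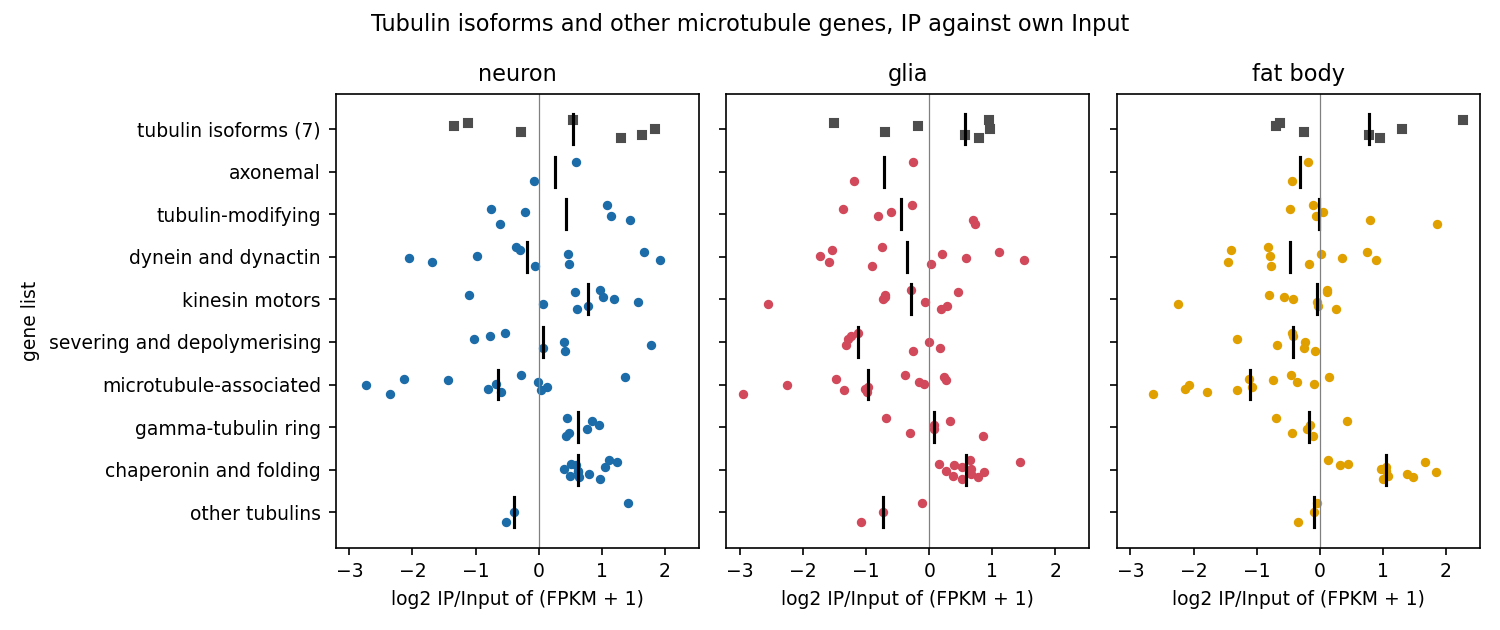
log2 IP/Input of (FPKM + 1) in neurons, glia and the fat body for the 7 tubulin isoform genes (grey squares) and the genes of 9 microtubule lists that reached 1 FPKM (circles), with a bar at each list's median. On the deposited scale the chaperonin and folding list has medians of 0.63, 0.58 and 1.06, of which the last pair turn negative under total scaling (-0.12 and -0.38), and the microtubule-associated protein list has -0.64, -0.97 and -1.10.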

How the data were processed

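The submitters' processing notes name TopHat2 2.0.6, Cufflinks 2.0.2, Cuffdiff 2.0.2 and the genome build BDGP5. What the authors deposited is 1 table with an FPKM per gene for each of 6 groups, both replicates combined, and a q-value for each of the 3 pairs of IP groups. A biological replicate is, per the labels, pooled from 4 technical ones. How replicates were combined and libraries scaled, and the annotation release, are not given in the sources used here. Without counts or replicate values the linear models planned for per-library values could not be run, and no interval was computed.

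A pseudocount of 1 was added to FPKM before taking log2, and genes that stayed below 1 FPKM throughout were not counted. Genes listed at 0 in a compared group were left out of fold counts. A gene counted from 2-fold upwards, or from the authors' q under 0.05 with its direction read from FPKM.

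The rule for the members uses gene names and no measured value, but members and gene lists were chosen with earlier results of these data known. Besides the members and the driver and tag genes, each microtubule list named its 2 genes of highest mean FPKM and those with the largest rise and fall of log2 IP/Input. The 5 nearest profiles were taken among named genes (no CG or CR identifiers) that reached 5 FPKM in some group. Marker lists covered neurons, glia, fat body, muscle, hemocytes, testis and ciliated chordotonal cells. Symbols not in the table were matched through current gene names, mgr and Nna1 without success. No gene name starting with Rsph, listed among the axonemal genes, was found. Members were matched to the later annotation by symbol, 5 of 7 also by identifier. Rescaled list values and marker sums without 1 gene were added after the data had been seen. Median scaling and the 2-fold counts against Input were tested on simulated columns with known changes and without low-level genes. The other steps were not tested in this way. Python 3.11.15, numpy 2.4.6, pandas 2.3.3 and matplotlib 3.10.9 were used.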

Additional observations from a re-analysis of the deposited data

Results flagged for a closer look

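kat-60L1, the katanin-like severing gene, was at least 2-fold higher than its Input in the neuron IP (log2 1.78) and at least 2-fold lower in the glia IP (-1.33), a difference of 3.11 between cell types that was not tested, since the table holds 1 value per group.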

How the results depend on the processing

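No paired analysis was possible because the table holds 1 combined value per group, and for the same reason leaving out each replicate was not run. Leaving out low values or adding them changed no count except that, with at least 5 FPKM required, 1 member and not 2 was lower in the glia than in the fat body IP. Shares of isoforms moved by at most 0.607 percentage points when every other alpha- or beta-tubulin gene was added, and by at most 1.56 without the lowest member of each class.

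Shares over all genes were computed for the main settings only. The counts of members in this section therefore have no such share beside them, and whether other genes moved alike was not tested. Counts of members against the own Input moved as follows. In neurons 2 and not 3 were higher under median scaling, total scaling and from 3-fold, and under both scalings alphaTub84B was the member lost (log2 0.78 and 0.73). Under median scaling 2 were lower in glia, and in the fat body 1 was higher and 2 lower. Under total scaling 2 were lower in glia, and in the fat body 0 were higher and 3 lower, with betaTub56D reversed to -0.18. With a pseudocount of 0.1, 2 were lower in glia, and with one of 5, 0 were lower in neurons. From 1.5-fold, 3 were higher and 2 lower in glia, and 4 higher and 2 lower in the fat body. From 3-fold, 0 were lower in neurons, 0 lower in glia and 1 higher in the fat body. With the mean of the neuron and fat body Inputs as base, 0 were lower in glia and betaTub85D was reversed to 0.27.

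Between the glia and fat body IPs, q under 0.01 left 1 member higher and 1 lower, and q under 0.05 with at least 2-fold left 0 higher and 1 lower. On the deposited scale alphaTub84D (1.08) and betaTub60D (-1.17) had differences of log2 IP/Input of at least 1 for neurons minus glia. Only betaTub97EF had them for neurons minus the fat body (-1.73) and glia minus the fat body (-1.32). For such differences, total scaling gave 2 members higher and 0 lower for neurons minus glia, and 3 higher and 0 lower for neurons minus the fat body. Median scaling gave 1 higher for neurons minus the fat body, a pseudocount of 5 gave 0 lower for neurons minus glia, and both scalings gave 0 lower for glia minus the fat body. The scale shifts are the construction of these settings; the cause of the other moves was not tested. Depth is unknown, so how far it limits the low members cannot be given.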

Other observations

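Markers of further cell types are given beside betaTub60D and alphaTub85E, low members whose expression is known from muscle and support cells. The 8 muscle markers summed to 3671, 3044 and 3024 FPKM across Inputs (neurons, glia, fat body) and to 2144, 798 and 1619 across IPs, with none at 0. Act88F, an actin gene of flight muscle on that list, went the other way, at 3.77, 44.0 and 2.80 FPKM across IPs and 5.35, 39.3 and 4.09 across Inputs. The 7 genes listed for ciliated chordotonal cells summed to 5.88 to 6.56 FPKM across Inputs and 6.70, 10.2 and 5.47 across IPs, with 5 or 6 of them under 1 FPKM in each group and none at 0. Cad96Ca carried most of it, and the other 6 summed to 2.56, 1.27 and 1.57 across IPs. How specific the listed genes are to chordotonal cells, or to their support cells, was not tested. The 5 hemocyte markers summed to 18.2 to 21.6 FPKM in the Inputs and 23.4, 6.88 and 11.1 in the IPs, with none at 0. Pxn supplied 21.4 FPKM in the neuron IP, and the other 4 summed to 1.93, 3.12 and 6.48 across IPs.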
